A study of Mus musculus with 6 samples.

Results

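Vascular endothelial genes are described here as 10 genes taken by name from the 56262 genes of the count table: Pecam1, Cdh5, Kdr, Flt1, Flt4, Tek, Tie1, Vwf, Aplnr and Gpihbp1. They were chosen as genes known for their expression in blood and lymphatic vessels, but with earlier results of these data known, so counts over them are descriptions. All 10 passed the filter on low counts. RNA-seq was performed on total RNA from leg muscle of mouse fetuses at embryonic day 18.5, with 3 WT samples and 3 samples lacking *SYISL*, a long noncoding RNA whose role in fetal muscle was the question of the series. WT fetuses were wild type and came from WT parents, whereas KO fetuses carried the *SYISL* KO and came from KO parents, and no other allele or agent is named for either group. Fetal and maternal genotype therefore changed together and cannot be told apart. Nothing says that the samples of a group came from separate litters, so the p-values measure the spread between these samples, which may be technical. The sex of the fetuses and the strain are not named in the labels.

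Endothelial cells line blood and lymphatic vessels and differ between arteries, veins, capillaries and lymphatics. Their growth is steered by vascular endothelial growth factors (VEGFs), which bind the receptor tyrosine kinases encoded by Flt1, Kdr and Flt4, and by angiopoietins, which bind Tek and act with its orphan relative Tie1. Pecam1 and Cdh5 encode adhesion proteins of endothelial junctions, Vwf a secreted clotting protein, Aplnr the receptor for the peptide apelin, and Gpihbp1 the protein that carries lipoprotein lipase to the capillary surface. In skeletal muscle, capillaries run along the fibres and supply oxygen and fatty acids.

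Depth was 82054811 to 102233181 counts per sample, and the 10 genes took 0.0878% to 0.0923% of the counts in WT samples and 0.0984% to 0.101% in KO samples. The lowest count of any of the 10 genes in a sample was 2218. *SYISL* itself was not analysed here, so the deletion was not checked. Its host gene Synpo2 was counted 12943, 10812 and 14672 times in the WT samples but 18054, 20957 and 22270 times in the KO samples. Summed markers of epidermis were 14443 to 21859 CPM (the usual depth-scaled count) in WT and 592 to 672 in KO. Those of red blood cells were 3947 to 5191 CPM in WT and 548 to 669 in KO. Muscle fibre markers summed to 16433 to 18588 CPM in WT and 35563 to 42893 in KO. Of these 7 markers, 5 rose at an adjusted p under 0.05, Myog fell (log2 fold change -0.22) and Myh3 did not pass (-0.040). The 2 groups of dissected tissue thus differed in much besides their vessels.

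Promoters of the 5 receptor tyrosine kinase genes were taken from RefSeq (GRCm38.p6), and those of Pecam1, Cdh5, Vwf, Aplnr and Gpihbp1 were not used here. The bases just before the start are shown for the 3 of the 5 whose RefSeq start lay within 5 bases of the GENCODE start, while the starts of Flt4 and Tie1 differed by 416 and 212 bases. The 3 genes shown moved by different amounts. Flt1 had the largest rise among the receptor genes, Kdr a small rise, and Tek no rise that passed the test. Capitals mark GGAA on either strand (GGAA or TTCC), the core letters bound by ETS factors such as Erg and Fli1, which are endothelial regulators. The Kdr window is chr5:75978459-75978705 and the Flt1 window chr5:147726012-147726261, both on the minus strand, and the Tek window is chr4:94739039-94739288 on the plus strand, each written 5′ to 3′ along its gene.
Kdr: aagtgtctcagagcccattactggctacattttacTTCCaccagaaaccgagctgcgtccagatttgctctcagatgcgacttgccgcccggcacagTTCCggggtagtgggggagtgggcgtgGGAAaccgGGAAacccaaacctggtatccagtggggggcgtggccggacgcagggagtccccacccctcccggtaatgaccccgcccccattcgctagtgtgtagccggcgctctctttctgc
Flt1: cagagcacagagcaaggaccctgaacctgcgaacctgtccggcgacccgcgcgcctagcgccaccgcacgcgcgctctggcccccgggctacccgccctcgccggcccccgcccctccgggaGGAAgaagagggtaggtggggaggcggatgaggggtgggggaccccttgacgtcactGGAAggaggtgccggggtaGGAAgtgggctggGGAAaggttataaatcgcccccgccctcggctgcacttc
Tek: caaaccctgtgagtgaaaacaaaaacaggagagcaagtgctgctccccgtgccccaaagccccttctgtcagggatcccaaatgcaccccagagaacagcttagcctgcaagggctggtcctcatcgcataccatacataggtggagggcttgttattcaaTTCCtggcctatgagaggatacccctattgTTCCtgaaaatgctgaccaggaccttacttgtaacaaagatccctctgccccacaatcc
GGAA occurred 4 times in the Kdr window, 4 times in the Flt1 window and 2 times in the Tek window. These letters were found in 93.4% of the 32851 windows of the table, with a median of 3 matches, so their presence is common. The GC content was 61.5% for Kdr, 70.4% for Flt1 and 51.2% for Tek. The cAMP response element TGACGTCA, searched on both strands and picked after the Flt1 window was seen, occurred 1 time in the Flt1 window, just before a GGAA, in none of the other 4 receptor windows, and in 1.55% of all windows. ACGTG is a form of the core letters bound by hypoxia-inducible factors, and the form GCGTG was not searched for. ACGTG was found in 16.6% of all windows on either strand and in none of the 5 receptor windows. The windows searched were the 250 bases before the RefSeq start, and a match is a description of letters and not of binding.

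The labelled tissue held clear endothelial expression in every sample. Per kilobase of exon, a scale that allows genes to be compared (RPKM), Cdh5 stood highest in WT at 62.7 ± 3.53 (SD, n = 3). It was followed by Aplnr at 26.5 ± 0.752 and Pecam1 at 25.9 ± 0.163 RPKM, whose WT samples overlapped. Tek at 13.0 ± 0.147 came next, above Gpihbp1 at 11.5 ± 0.354, Tie1 at 11.1 ± 0.294 and Kdr at 10.6 ± 0.413 RPKM, of which each overlapped its neighbour. Flt1 at 3.84 ± 0.189, Flt4 at 3.19 ± 0.232 and Vwf at 2.23 ± 0.0480 RPKM were lowest, without overlap between neighbours. In KO the order of the higher genes differed. Pecam1 at 33.6 ± 0.902 RPKM stood above Aplnr at 22.3 ± 1.60, and Gpihbp1 at 16.2 ± 0.876 stood above Tek at 13.8 ± 0.270, with no overlap in either pair. Lengths were those of all annotated exons merged, which understates the RPKM of genes with long or rarely used exons.

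**Figure D1:**
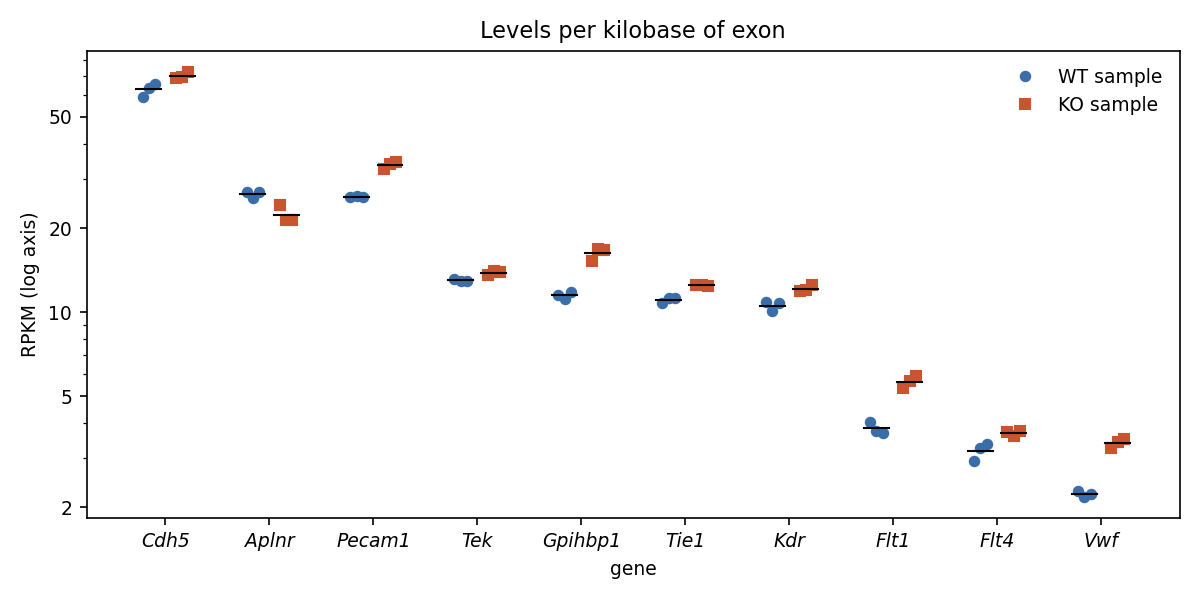
Level of each gene in RPKM (log axis) in the 3 WT samples (circles) and 3 KO samples (squares), with the group mean as a line. Genes are ordered by their WT mean, from Cdh5 at 62.7 to Vwf at 2.23 RPKM, and Aplnr was the gene whose KO samples lay below its WT samples.

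Between genotypes, 8 of the 10 genes rose in KO, Aplnr fell, and Tek did not pass the test. The rises were small, from 0.16 for Cdh5 to 0.61 for Vwf on the log2 scale, and Vwf was the only one of the 10 with a fold change over 1.5. Log2 fold changes are KO over WT from edgeR's quasi-likelihood test, and adjusted p is its Benjamini-Hochberg adjusted p over 22071 genes tested. At an adjusted p under 0.05 alone, 21.9% of all genes tested rose and 23.1% fell, against 8 and 1 of the 10 genes. These shares are also the background for the counts of each gene list below. With a fold change over 1.5 as well, 8.31% rose and 8.39% fell, against 1 and 0 of the 10. In all 10 genes the 3 KO values did not overlap the 3 WT values, with KO higher in 9 and lower in 1, where 27.3% of all genes did so with KO higher and 28.5% with KO lower. The median log2 fold change of the 10 genes was 0.21, beside -0.0041 over all genes tested, whose quartiles were -0.21 and 0.24. Genes of at least 28.4 CPM, the lowest mean over the 6 samples among the 10 genes (Flt4), passed more often, with 26.1% higher and 32.2% lower at adjusted p alone. Scaled on library size alone, Flt4, Tie1 and Cdh5 no longer passed, and Vwf no longer exceeded a fold change of 1.5. In bulk tissue, fewer cells of a type and less RNA per cell cannot be told apart, and the same holds for more.

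**Figure D2:**
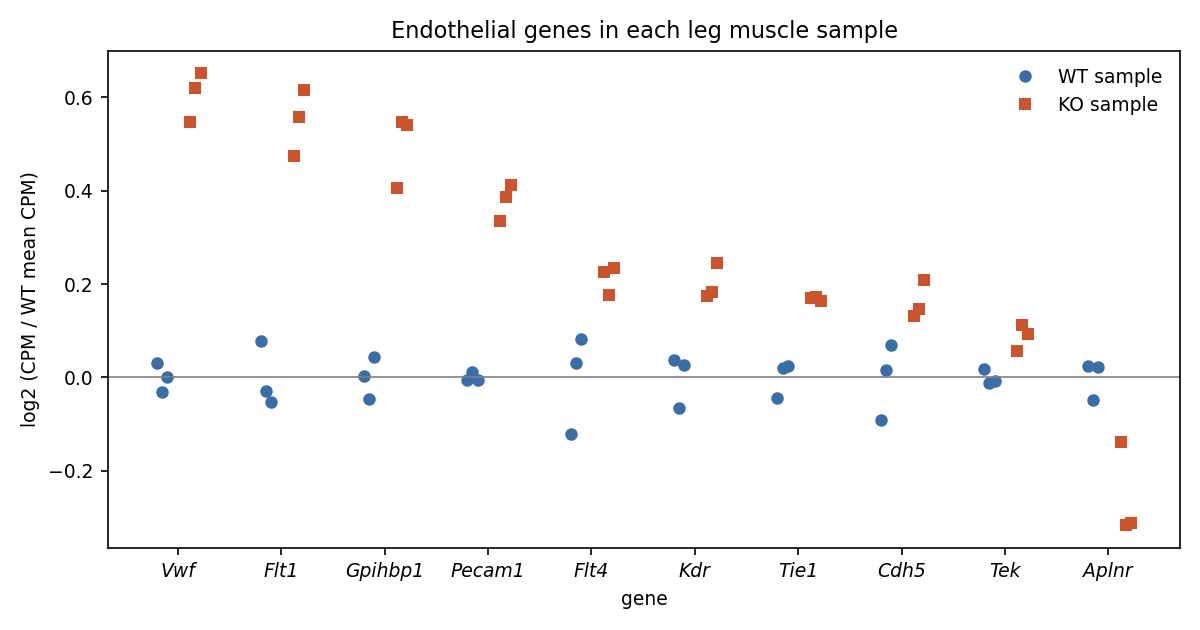
Log2 ratio of each sample's CPM to the WT mean CPM of that gene, for WT (circles) and KO samples (squares), with genes ordered by fold change. KO samples lay above every WT sample for 9 genes and below them for Aplnr.

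Among the VEGF receptors, Flt1 rose most. Flt1, which encodes VEGFR1 and, as a soluble form, a VEGF trap, lies on chromosome 5 from 147561604 to 147726011 (mm10, minus strand). Its values were 54.7, 50.8 and 49.9 CPM in WT and 72.1, 76.3 and 79.5 CPM in KO, and the lowest KO sample was well above the highest WT sample. It rose by 46.5% (95% interval 35.5% to 58.5%), a log2 fold change of 0.55 ± 0.050 (SE), with an adjusted p of 2.05e-05. Counts per gene do not separate its soluble from its membrane form. Kdr, which encodes VEGFR2, the main signalling receptor for Vegfa in blood vessels, lies on chromosome 5 from 75932827 to 75978458 (minus strand). It was measured at 97.8, 91.0 and 97.1 CPM in WT and at 108, 108 and 113 CPM in KO, so that the groups stood close together without overlap. Its log2 fold change was 0.20 ± 0.042, a rise of 14.9% (95% interval 7.65% to 22.7%), with an adjusted p of 0.00371. Flt4, which encodes VEGFR3, the receptor for Vegfc and Vegfd on lymphatic and sprouting vessels, lies on chromosome 11 from 49609263 to 49652739 (plus strand). Its WT values of 24.1, 26.8 and 27.8 CPM were followed in KO by 30.7, 29.7 and 30.9 CPM, with 1 WT sample lower than the rest. It rose by 0.21 ± 0.058 on the log2 scale, with an adjusted p of 0.0145, and the call was lost without KO replicate 3 (adjusted p 0.0517).

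The receptors thus changed by unequal amounts. The ratio of Flt1 to Kdr CPM was 0.560, 0.558 and 0.514 in WT and 0.670, 0.705 and 0.704 in KO, a log2 difference of 0.35. This ratio was picked after the values of both genes were seen, and its exact permutation p of 0.1 (two-sided, n = 3 per group) is the smallest that 3 against 3 samples allow. All 7 genes of the list of VEGF ligands and coreceptors passed the test, 6 higher and 1 lower, with a median log2 fold change of 0.31 and none past a fold change of 1.5. Vegfa, the main ligand of Kdr and Flt1 and the most abundant of the list per length, was 149, 155 and 148 CPM in WT and 186, 208 and 207 CPM in KO. It rose by 0.41 on the log2 scale (adjusted p 1.77e-04). Vegfb, a ligand of Flt1 only, rose by 0.43 (adjusted p 3.02e-05), and Pgf, another ligand of Flt1, by 0.26 (adjusted p 0.00588). Vegfc and Vegfd, ligands of Flt4, rose by 0.25 (adjusted p 0.0235) and 0.31 (adjusted p 0.0106). The coreceptors moved in opposite directions. Nrp1, which pairs with Kdr, was 52.6, 55.1 and 58.1 CPM in WT and 77.5, 68.8 and 71.6 CPM in KO, with a log2 fold change of 0.39 (adjusted p 2.97e-04). Nrp2, found more on veins and lymphatics, fell from 201, 223 and 221 CPM to 198, 182 and 187 CPM, a log2 fold change of -0.19 (adjusted p 0.0188). The call of Nrp2 was lost without WT replicate 2 or 3 or KO replicate 2 or 3 (adjusted p up to 0.0731), and that of Vegfc without WT replicate 3 or KO replicate 2 or 3 (up to 0.104). Nrp2 also no longer passed with upper-quartile factors (adjusted p 0.104), nor Vegfc with library size alone (adjusted p 0.0745).

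The angiopoietin receptor genes had small changes, and that of Tek was the smallest of the 10 genes. Tek, the receptor for angiopoietins that keeps vessels quiescent, lies on chromosome 4 from 94739289 to 94874976 (plus strand). It was 62.1, 60.9 and 61.0 CPM in WT and 63.8, 66.3 and 65.5 CPM in KO, a narrow gap without overlap. Its log2 fold change of 0.087 (95% interval 0.0088 to 0.17) did not pass, at an adjusted p of 0.0683, but passed without KO replicate 1 (adjusted p 0.0364) and with upper-quartile factors (adjusted p 0.00666). Tie1, which modifies Tek signalling and has no ligand of its own that is agreed upon, lies on chromosome 4 from 118471191 to 118490061 (minus strand). Its values were 52.9, 55.3 and 55.5 CPM in WT and 61.4, 61.5 and 61.1 CPM in KO, and the KO samples were nearly the same. It rose by 0.17 ± 0.036 (adjusted p 0.00400). Of the 4 partner genes listed, 3 rose and 1 did not pass, with a median of 0.38. Ptprb, the vascular phosphatase that removes phosphate from Tek, was 46.0, 41.7 and 45.3 CPM in WT and 62.6, 69.0 and 69.9 CPM in KO and rose by 0.60, past the fold change of 1.5 (adjusted p 2.06e-05). Angpt2, made by endothelial cells and mostly an antagonist of Tek, was 15.4, 15.1 and 15.2 CPM in WT and 21.8, 22.3 and 22.3 CPM in KO, with a log2 fold change of 0.54 (adjusted p 1.78e-05). Angpt1, the agonist made by mural and other mesenchymal cells, rose by 0.23 (adjusted p 0.0301), a call lost with library size alone (adjusted p 0.121) and without WT replicate 2 or 3 or KO replicate 2 or 3 (adjusted p up to 0.104). An antisense gene overlaps 737 of the 5205 exon bases of Angpt1, and whether counting used strand is not stated. Angpt4 was near 1 CPM throughout (log2 fold change -0.10, adjusted p 0.555).

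The 2 junction genes both rose, Pecam1 more than Cdh5. Pecam1, which encodes CD31, an adhesion protein of endothelium that platelets and some white blood cells also carry, lies on chromosome 11 from 106654217 to 106750628 (minus strand). It was 161, 162 and 160 CPM in WT, the tightest WT group among the 10 genes relative to its level, and 203, 211 and 214 CPM in KO. It rose by 30.0% (95% interval 22.4% to 38.0%), a log2 fold change of 0.38 ± 0.039 (adjusted p 4.32e-05). Cdh5, which encodes VE-cadherin of endothelial adherens junctions and is the more restricted of the pair, lies on chromosome 8 from 104101625 to 104144511 (plus strand). Its values were 247, 266 and 277 CPM in WT and 289, 292 and 304 CPM in KO, so the WT samples were spread over more than the gap between groups. It rose by 11.9% (95% interval 3.26% to 21.4%), with an adjusted p of 0.0286, and the call was lost without WT replicate 1 or 2 or KO replicate 2 or 3 (adjusted p up to 0.0987). The ratio of Pecam1 to Cdh5 CPM, picked after the values were seen, was 0.613 ± 0.0345 in WT and 0.710 ± 0.0105 in KO (SD, n = 3, exact permutation p = 0.1, the smallest possible). Macrophage markers summed to 197 to 212 CPM in WT and 336 to 363 in KO, and 6 of the 7 rose. Platelet markers summed to 31.2 to 31.5 CPM in WT and 48.4 to 56.9 in KO, with 4 of 8 higher and 2 lower. The part of these cells in the rise of Pecam1 was not tested.

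Vwf had the largest change of the 10 genes. It encodes von Willebrand factor, which endothelial cells store and release and which is also made by megakaryocytes, and it lies on chromosome 6 from 125546774 to 125686679 (plus strand). It was 36.6, 35.1 and 35.9 CPM in WT and 52.5, 55.2 and 56.4 CPM in KO, with each group tightly placed. It rose 1.52-fold (95% interval of the increase 42.9% to 62.4%), a log2 fold change of 0.61 ± 0.041, with an adjusted p of 2.85e-06. The summed platelet markers given above moved the same way, led by Pf4, which some macrophages also express, at 21.3, 20.5 and 22.4 CPM in WT and 43.0, 37.9 and 36.0 CPM in KO. Of the other 7 platelet and megakaryocyte genes, Ppbp (log2 fold change 1.35), Gp1ba (0.88) and Itga2b (0.30) rose, Gp9 (-1.29) and Tubb1 (-1.17) fell, and Gp1bb (-0.96) and Gp5 (-0.59) did not pass. Gp1bb shares 1902 of its 2087 exon bases with a neighbouring gene, so its reads are uncertain. The part of platelets in the rise of Vwf was not tested. Of the 12 other genes of endothelial clotting control, vessel tone and leukocyte adhesion, 9 rose, none fell, and 3 did not pass, with a median of 0.24. Sele, the adhesion molecule E-selectin of activated endothelium, rose by 0.90 from below 1 CPM in WT (adjusted p 4.99e-04). Edn1, which encodes the vasoconstrictor endothelin, was 4.09, 4.36 and 4.11 CPM in WT and 5.79, 7.32 and 7.45 CPM in KO, a rise of 0.71 (adjusted p 3.93e-04). Thbd, the anticoagulant thrombomodulin and the most abundant of the list per length, rose by 0.24 (adjusted p 5.15e-04).

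Aplnr was the only one of the 10 genes that fell. It encodes the apelin receptor, found on venous and sprouting endothelium and on some mesenchymal cells, and lies on chromosome 2 from 85136225 to 85139923 (plus strand). It was 99.8, 94.9 and 99.7 CPM in WT and 89.2, 78.8 and 79.1 CPM in KO, with KO replicate 1 nearest to the WT samples. Its log2 fold change was -0.25 ± 0.053, a change of -16.1% (95% interval -22.8% to -8.85%), with an adjusted p of 0.00377. Its ligand Apln, a product of tip cells at the front of sprouts, moved the other way. Apln was 31.0, 36.2 and 35.9 CPM in WT and 35.7, 46.1 and 47.3 CPM in KO, and KO replicate 1 lay within the WT range. It rose by 0.33 (adjusted p 0.0279), and the call was lost without WT replicate 1 or KO replicate 2 or 3 (adjusted p up to 0.114). The ratio of Apln to Aplnr CPM, picked after the values were seen, was 0.351 ± 0.0363 in WT and 0.528 ± 0.111 in KO (SD, n = 3, exact permutation p = 0.1, the smallest possible). Apela, the other ligand, stayed near 3 CPM with a log2 fold change of 0.02 (adjusted p 0.884), whose sign turned with library size scaling, with endothelial scaling and without 3 of the samples. It shares 297 of its 1004 exon bases with another gene on the same strand, so its reads are partly uncertain.

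Gpihbp1, which anchors lipoprotein lipase in capillaries, lies on chromosome 15 from 75596628 to 75599481 (plus strand) and rose together with the lipase. It was 29.3, 28.4 and 30.2 CPM in WT and 38.8, 42.8 and 42.6 CPM in KO, with a log2 fold change of 0.50 ± 0.050 (adjusted p 3.85e-05). Lpl, the lipase itself, made by muscle fibres and adipocytes, was 138, 118 and 142 CPM in WT and 375, 444 and 432 CPM in KO, with a log2 fold change of 1.65 (adjusted p 5.17e-07). Of the 8 genes listed for fatty acid handling by capillaries, 3 rose, 2 fell and 3 did not pass, with a median of 0.083. Fabp4, a fatty acid carrier of capillary endothelium and adipocytes, rose by 1.18 (adjusted p 3.47e-06), and Cd36, a fatty acid uptake protein of endothelium, muscle and adipocytes, by 0.85 (adjusted p 9.52e-06). Fabp5, a carrier that capillaries share with epidermis, fell from 616, 725 and 589 CPM to 120, 132 and 124 CPM, a log2 fold change of -2.36 (adjusted p 7.25e-08). Adipocyte markers summed to 6.45 to 22.8 CPM in WT and 117 to 137 in KO, with all 5 higher, and epidermal markers fell, with all 7 lower. The part of fat and skin in these list values was not tested. For Gpihbp1 itself, no exon overlaps another annotated gene, as was so for all 10 genes.

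Each gene was also set against endothelial RNA as a whole. Here samples were scaled on the mean log CPM of 21 other general endothelial genes, none of them among the 10, in place of all genes. Of these 21 genes, 14 rose, Sox7 fell and 6 did not pass, with a median of 0.22, and their summed CPM was 853 to 871 in WT and 1000 to 1026 in KO. Adgrl4, an adhesion receptor of vessels, was the only one past a fold change of 1.5 (log2 fold change 0.63, adjusted p 6.33e-05), and Eng, a coreceptor for TGF-beta and the most abundant per length, rose by 0.26 (adjusted p 2.19e-04). This scaling shifted the median of all genes by -0.21, so that values are relative to the average endothelial gene. On it Vwf remained higher at 0.40 ± 0.040 (adjusted p 2.25e-05), Flt1 at 0.34 ± 0.047 (adjusted p 1.81e-04), Gpihbp1 at 0.29 ± 0.048 (adjusted p 5.33e-04) and Pecam1 at 0.17 ± 0.040 (adjusted p 0.00467). Aplnr was lower at -0.46 ± 0.057 (adjusted p 8.97e-05), and Tek was lower at -0.12 ± 0.037 (adjusted p 0.0169), the sign opposite to that with all genes. Kdr, Flt4, Tie1 and Cdh5 lay between -0.046 and 0.0029 and did not pass, with adjusted p of 0.438 to 0.972. On this scaling 4 of the 10 genes were higher, 2 were lower and 4 did not pass. Of the 22071 genes tested, 2423 were higher and 10238 lower on it. The 21 reference genes themselves ranged from -0.14 to 0.63 when scaled on all genes. That spread does not enter these p-values, so the counts depend on the genes chosen as reference.

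**Figure D3:**
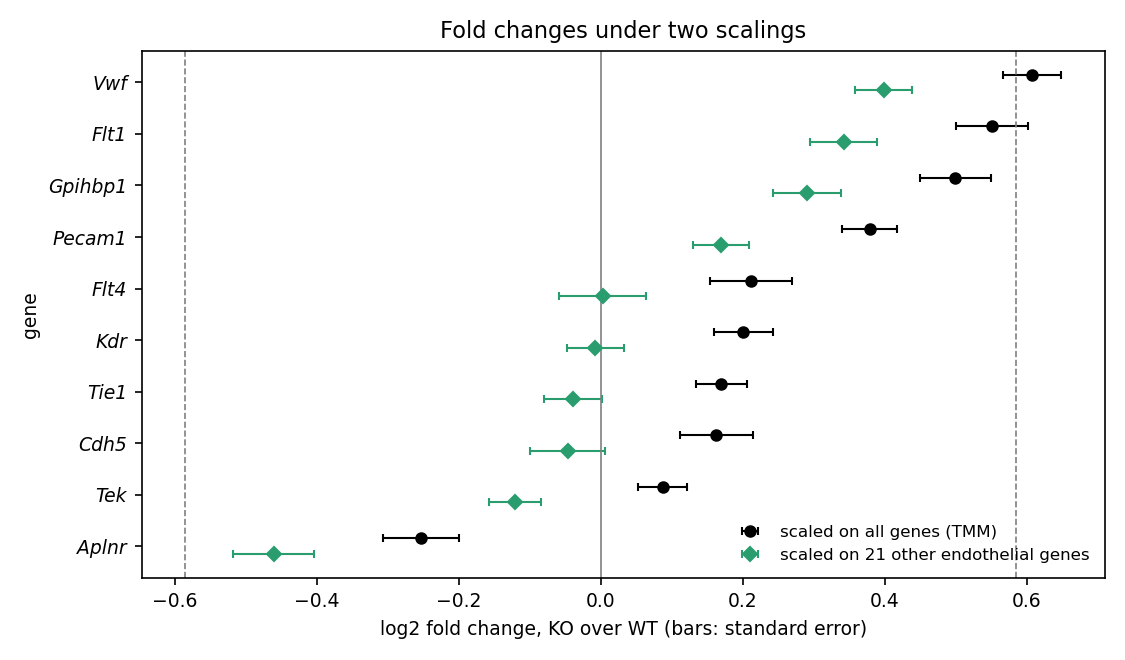
Log2 fold change of KO over WT for each gene, with bars of 1 standard error, scaled on all genes by TMM (circles) and on 21 other endothelial genes (diamonds). Dashed lines mark a fold change of 1.5, which Vwf passed at 0.61 when scaled on all genes and no gene passed when scaled on endothelial genes.

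Genes that mark kinds of vessel were compared in the same fit. Of the 8 arterial genes, 3 rose, 1 fell and 4 did not pass, with a median of 0.097, and Efnb2, the arterial ephrin ligand and the most abundant per length, had a log2 fold change of -0.11 (adjusted p 0.0538). Of the 3 venous genes, 2 rose, with a median of 0.11. Ackr1, a chemokine receptor of venules, was 1.06, 0.678 and 0.862 CPM in WT and 2.51, 2.43 and 2.85 CPM in KO, with a log2 fold change of 1.58 (adjusted p 3.54e-05). It shares 361 of its 1405 exon bases with Cadm3, which rose by 1.29, so reads of the 2 genes may be split uncertainly. Ephb4, the venous receptor for ephrins, had a log2 fold change of -0.07 (adjusted p 0.127). All 6 tip cell genes rose at adjusted p alone, with a median of 0.36, where 21.9% of all genes tested did so. Of these, 4 (Pgf, Apln, Angpt2 and Dll4) also stand in other lists, and the KO and WT values of Apln overlapped. Of the 6 lymphatic genes, 3 rose and 3 did not pass, with a median of 0.12. Lyve1, carried by lymphatic endothelium and by some macrophages, was 58.4, 60.2 and 59.0 CPM in WT and 124, 104 and 105 CPM in KO, with a log2 fold change of 0.90 (adjusted p 4.61e-06), beside the higher macrophage markers given above, whose part was not tested. Pdpn, a lymphatic gene also expressed by fibroblasts, had a log2 fold change of 0.10 (adjusted p 0.0651).

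The cells around vessels and genes that respond to low oxygen gave a mixed picture. Of the 10 genes of pericytes and vascular smooth muscle, 7 rose, 1 fell and 2 did not pass, with a median of 0.25, and their sum was 1250 to 1273 CPM in WT and 1381 to 1446 in KO. Tagln, which did not pass, was at 0.84 CPM in WT and 0.97 in KO. An antisense gene overlaps 1241 of its 1988 exon bases, so its level is uncertain. Myh11, the myosin of smooth muscle, was 51.5, 42.6 and 48.2 CPM in WT and 102, 95.3 and 101 CPM in KO, with a log2 fold change of 1.07 (adjusted p 1.55e-06). Acta2, smooth muscle actin, which developing muscle fibres also express, fell by 0.19 on the log2 scale (adjusted p 0.0121), a call lost without KO replicate 3 (adjusted p 0.0644) and with upper-quartile factors (adjusted p 0.0672). Of 7 targets of hypoxia-inducible factors, 4 rose and 2 fell, with a median of 0.41. Their sum was 340 to 391 CPM in WT and 370 to 414 in KO, so the groups overlapped. Slc2a1 (log2 fold change -0.36, adjusted p 0.00267) and Ndrg1 (-0.32, adjusted p 0.00393) fell, and Ankrd37 did not pass. Adm, the vessel-relaxing peptide adrenomedullin, was 3.38, 3.35 and 3.34 CPM in WT and 6.31, 6.39 and 6.01 CPM in KO, with a log2 fold change of 0.89 (adjusted p 6.70e-06). Bnip3, a mitochondrial protein, rose by 0.59 (adjusted p 5.92e-04), and Egln3, an oxygen-sensing enzyme, by 0.50 (adjusted p 0.00487). An antisense gene overlaps 504 of the 2265 exon bases of Bnip3. Over the 12 vascular lists together, which hold 90 genes, 57 rose, 8 fell and 25 did not pass, with a median of 0.24, against 21.9% and 23.1% of all genes tested. With a fold change over 1.5 as well, 12 of the 90 rose and 1 fell, against 8.31% and 8.39% of all genes tested.

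**Figure D4:**
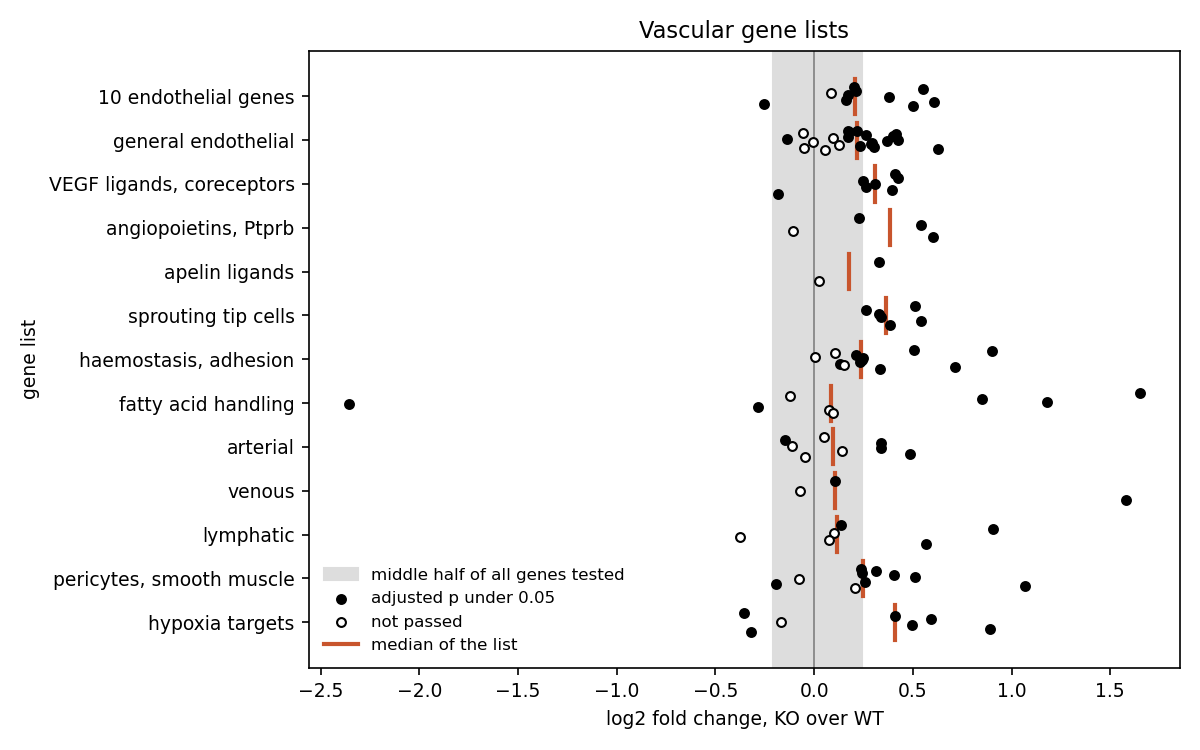
Log2 fold change of KO over WT for each gene of the 10 endothelial genes and the 12 vascular lists, filled where the adjusted p was under 0.05, with the median of each list as a vertical line. The grey band runs from the lower to the upper quartile of all genes tested, -0.21 to 0.24, and Fabp5 at -2.36 and Lpl at 1.65 mark the ends.

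Beside other cell types, the change in the 10 genes was small. Their sum was 865 to 894 CPM in WT and 1008 to 1046 in KO. Fibroblast markers summed to 28236 to 31224 CPM in WT and 34380 to 35516 in KO, and their median log2 fold change of 0.19 was close to the 0.21 of the 10 genes. The medians were 1.27 for muscle fibres, 0.72 for macrophages, 2.66 for adipocytes, -3.10 for red blood cells and -5.47 for epidermis. No marker of these lists was at 0 in all samples. The part of these changes in tissue makeup in the endothelial values was not tested. The scaling on endothelial genes only sets values relative to those genes and does not measure that part.

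**Figure D5:**
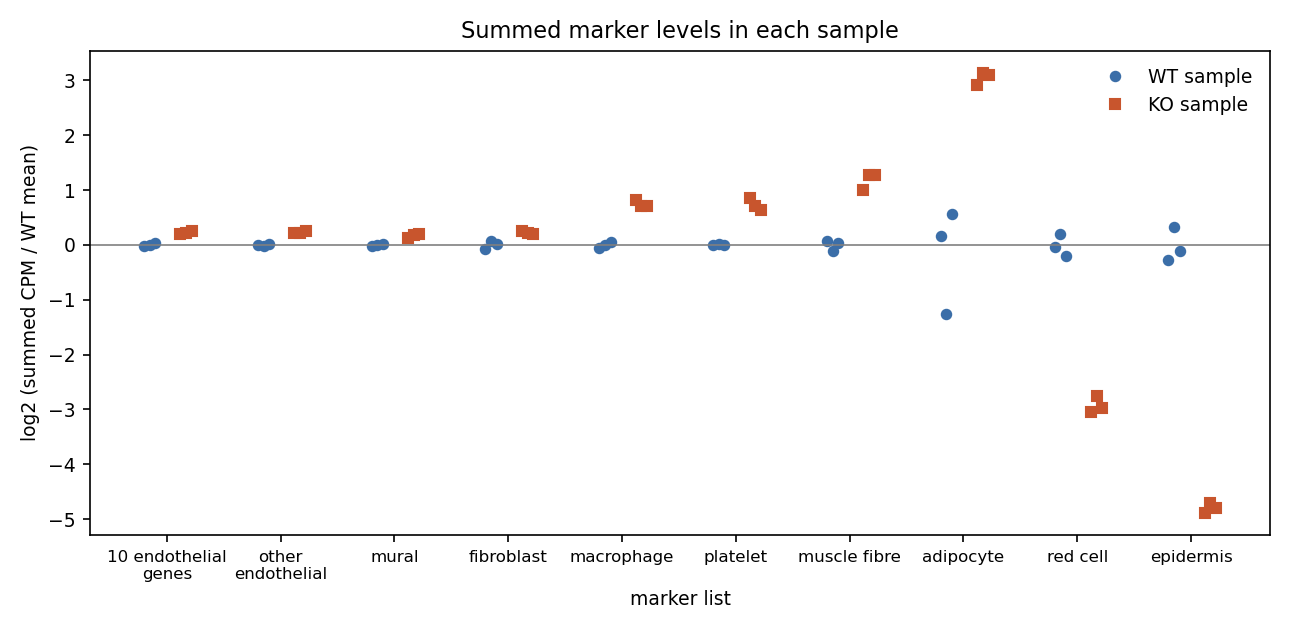
Log2 ratio of the summed CPM of each marker list to its WT mean in the 3 WT (circles) and 3 KO samples (squares). The 10 endothelial genes, other endothelial, mural and fibroblast lists sit close to 0 in KO, while the adipocyte list lies above and the red cell and epidermis lists far below.

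The genes with the profile most like the mean of the 10 over the 6 samples, measured by the root mean square difference of centred log2 CPM, were Stim2, Zfp11 and Rsu1. Stim2, a calcium sensor, was 96.4, 96.4 and 98.7 CPM in WT and 114, 118 and 118 CPM in KO. Such a profile was common, since 505 of 12361 genes of at least 5 CPM lay within 0.05 of the mean on the log2 scale.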

How the data were processed

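RNA-seq libraries of E18.5 leg muscle (3 WT, 3 KO) were used. Per the labels and methods, the authors trimmed reads with Trim Galore 0.6.6, mapped them to mm10 with HISAT2 2.2.1 and counted them with featureCounts 2.0.1. What they deposited is a table of raw, unnormalized counts for each gene. Annotation release, strand setting and the counting of reads or pairs are not given in the sources used here. Of 56262 gene IDs, 55227 matched GENCODE M21, which gave symbols, lengths and positions, and 1035 did not. In all, 18920 genes had no count.

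Counts were tested in R 4.3.3 with edgeR 4.0.16 (filterByExpr, TMM, quasi-likelihood F-test on genotype), with Benjamini-Hochberg adjustment over 22071 genes. CPM use TMM-scaled library sizes, and the biological coefficient of variation was 7.68%. A call needed a fold change over 1.5 with an adjusted p under 0.05, and calls by adjusted p alone were also counted. Where the call of a single gene is said to be lost or ended, it is one by adjusted p alone. The script was tested on simulated data. Same-numbered WT and KO samples deviated from their group means with correlations of -0.20, -0.13 and 0.05, so they were not paired. No same-group samples matched within sampling noise. KO replicates 2 and 3 were the most alike, with a mean chi-square per gene of 4.85 between their counts, beside 12.6 to 32.9 for the other same-group pairs. Depth was 82054811 to 102233181 counts.

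Named were the 10 genes, their ligands and partners, up to 4 called genes and the most abundant gene of each list, and the 3 nearest profiles. Gene members and lists were chosen with earlier results of these data known, so counts over them are descriptions. Alternatives were RLE, upper-quartile, library size and endothelial scaling, other count filters and fold thresholds, DESeq2 1.42.0, limma 3.58.1 voom, a replicate block and leaving out each sample.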

Additional observations from a re-analysis of the deposited data

How the results depend on the processing

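With RLE factors, either other count filter, DESeq2 and limma-voom, 8 of the 10 genes rose and 1 fell at adjusted p alone, as with TMM. Library size alone gave 5 rises, losing Flt4 (adjusted p 0.0809), Tie1 (0.0697) and Cdh5 (0.173). Upper-quartile factors gave 9 rises. Over all genes, rises at adjusted p alone went from 4838 to 3730 with library size and to 6077 with upper-quartile factors. Falls went from 5098 to 6475 and to 3719. These 2 settings shifted the median of all genes by -0.069 and 0.068 on the log2 scale. Endothelial scaling gave 4 rises and 2 falls, with Kdr at -0.0076, Tek at -0.12, Tie1 at -0.039 and Cdh5 at -0.046 reversed on the log2 scale. Leaving out 1 sample gave 6 to 9 rises and 1 fall. The fewest, 6, came without KO replicate 3, and 9 without KO replicate 1.

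Past a fold change of 1.5, 1 of the 10 genes rose, and this was 2 with upper-quartile factors, 0 with library size or endothelial scaling, 8 and 1 lower with no fold threshold, 0 past 2-fold, and 1 to 2 with a sample left out. The second call came without WT replicate 1 and without KO replicate 1. The replicate block left the 10 genes at 8 rises and 1 fall, and among the other named genes it moved Vegfc (adjusted p 0.0620), Nrp2 (0.0536) and Angpt1 (0.0685) past 0.05.

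For the 90 vascular genes, with alternatives chosen after seeing the data, 12 called rises became 57 with no fold threshold and 4 past 2-fold, and 1 called fall became 8. At adjusted p alone, 57 rises became 27 under endothelial scaling. The 8 falls became 3 with upper-quartile factors, 14 with library size, 23 with endothelial scaling, and 3 to 10 with a sample left out, 3 without KO replicate 3 and 5 without KO replicate 2. Over all genes, endothelial scaling moved called rises from 1835 to 1093 and falls from 1852 to 2845, and at adjusted p alone from 4838 to 2423 and from 5098 to 10238. With no fold threshold the calls were 4838 and 5098, and past 2-fold 774 rose. Apela reversed to -0.044 with library size, -0.19 with endothelial scaling, -0.012 without WT replicate 1, -0.018 without WT replicate 3 and -0.058 without KO replicate 1 (leaving out each sample gave -0.058 to 0.095), and Pdpn to -0.11 with endothelial scaling. Endothelial scaling also ended the calls of Vegfc, Vegfd, Pgf, Apln, Angpt1, Thbd, Eng, Stim2, Zfp11 and Rsu1. The cause of these changes was not tested, except that fold thresholds change counts by construction. Each of the 10 genes had at least 2218 counts in every sample, and the 3 samples per group, of unstated litters, limit the inference.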
